A study of Mus musculus with 6 samples.

Results

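The 45 interferon-stimulated genes described here were measured by RNA-seq in mouse bone marrow mesenchymal stromal cells (BMSCs) after osteogenic induction with or without nickel. They were taken by gene symbol from a fixed list of genes known to be induced by interferon. All 45 were found among the 54532 genes of the count table, and all 45 were among the 14624 genes that passed the filter on low counts. The cells were primary adherent marrow cells of wild type mice, whose age and sex the labels do not give. Both groups were kept for 7 days in osteogenic medium, which the labels give as dexamethasone at 100 nM, ascorbic acid at 50 μg/mL and β-glycerophosphate at 10 mM; the 3 Ni cultures also received 0.1 μM nickel and the 3 control cultures did not. The paper and the labels differ on the dexamethasone dose. The comparison asks whether this low dose of nickel went with a different level of interferon-stimulated genes in cells that were mineralizing.

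Interferons are secreted proteins that warn cells of infection. Type I interferons act through the receptor chains IFNAR1 and IFNAR2, and type II interferon through IFNGR1 and IFNGR2; kinases bound to these receptors then activate transcription factors. The type I signal reaches the interferon-stimulated response element through a complex that holds STAT2 and IRF9, and the type II signal reaches the gamma-activated site. The genes so induced encode sensors of viral RNA and DNA, enzymes that degrade or block viral RNA, and GTPases that attack membranes around intracellular microbes, and many are also expressed at a basal level without infection. In bone, interferons are known for restraining osteoclast formation from macrophage precursors.

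Libraries held between 16101033 and 18642504 counts. The labelled cell type was checked against marker genes. Stromal markers (17 of 18 at 10 counts or more in some library; Twist2 was below) summed to between 9785 and 13880 CPM (counts scaled to library size) in controls and between 15510 and 18130 CPM in Ni libraries, and osteoblast markers (10 of 10) to between 10360 and 20480 CPM and between 22820 and 30350 CPM. Macrophage markers were also abundant: all 20 were detected, and they summed to between 31750 and 36880 CPM in controls and between 31400 and 32190 CPM in Ni libraries. The log2 fold change with nickel was negative for 16 and positive for 4 of these 20, and its median was -0.17. Of the 17 tested stromal markers, 14 were positive and 3 negative (Cxcl12, Vcam1 and Thy1). Col1a2, the most abundant of them, had means of 4286 CPM in controls and 8413 CPM in Ni libraries. All 10 osteoblast markers were positive. The T and B cell genes Cd3e, Cd3d, Ms4a1 and Cd8a were at 0 in every library, as were the neutrophil genes S100a9, Ngp, Ltf and Retnlg and the erythroid globins. Other genes of these lists were not: Cd4 had from 385 to 611 and Klrb1c from 51 to 139 counts, and the lymphoid list summed to between 26.3 and 41.4 CPM in controls and between 26.4 and 32.9 CPM in Ni libraries. Of the neutrophil list, S100a8 had from 10 to 23 and Camp from 15 to 23 counts, Mpo had at most 7, and Ly6g and Elane at most 1. Of the plasmacytoid dendritic cell list, Siglech and Ccr9 had at most 8 counts and Klk1 none, Cox6a2 had from 4 to 15 and Spib from 38 to 159 counts, and Tcf4, which many other cells also express, was the most abundant, with up to 2632; this list summed to between 138 and 152 CPM. In such bulk samples, fewer cells of a type and less RNA per cell cannot be told apart, and the part that RNA of macrophages, stromal cells, osteoblasts or these other cell types had in the results was not tested.

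Control 3 stood apart from the other controls. Counts of controls 1 and 2 differed with a chi-square per degree of freedom of 8.07, whereas control 3 differed from them with 40.5 and 43.6. Its osteoblast marker sum of 20480 CPM lay closer to the Ni libraries than to the 10360 CPM of both other controls. Values that leaving out control 3 moves by over 1.5 times, or across the threshold of the test, are therefore also given without it, here or with the ranges over left-out libraries in the closing section.

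Matches to the binding letters of both kinds of factor were looked for in the promoters of the 45 genes. The genes were chosen as induced by interferon, which acts through these letters. The share of matches is therefore a description and not a separate test. RefSeq windows (GRCm38.p6, 250 bases before to 50 after a transcription start) were found for 33 of the 45 genes. The response element letters GAAANNGAAA, on either strand, stood in 21 of these 33 (63.6%), against 3.99% of the 27025 genes with such a window. The gamma-activated site letters TTCNNNGAA, which read the same on both strands, stood in 10 of 33 (30.3%), against 9.55% of genes. Both kinds were held by 6 genes, the response element letters without the other by 15, the gamma-activated site letters without the other by 4, and neither by 8. The stretches below lie upstream of a RefSeq start and outside annotated exons. They are shown for genes described in full below that hold the response element letters (Gbp2 and Ifi205 also hold them and are left out), and for pairs of near-identical copies, written 5′ to 3′ on the strand of the gene with the response element letters in capitals (on the opposite strand these read TTTCNNTTTC).
Bst2 (chr8:71537562-71537627, minus strand): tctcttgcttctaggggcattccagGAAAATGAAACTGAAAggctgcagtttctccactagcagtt
Trim30a (chr7:104465195-104465254, minus strand): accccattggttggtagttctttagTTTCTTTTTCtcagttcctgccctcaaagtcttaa
Gbp5 (chr3:142496744-142496803, plus strand): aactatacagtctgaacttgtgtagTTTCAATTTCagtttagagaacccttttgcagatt
Gbp7 (chr3:142530258-142530317, plus strand): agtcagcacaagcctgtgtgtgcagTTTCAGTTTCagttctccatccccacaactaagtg
Igtp (chr11:58199497-58199555, plus strand): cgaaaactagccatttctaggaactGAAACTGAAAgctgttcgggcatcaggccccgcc
Oas1a (chr5:120907526-120907570, minus strand): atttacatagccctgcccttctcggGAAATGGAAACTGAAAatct
Oas1g (chr5:120887614-120887656, minus strand): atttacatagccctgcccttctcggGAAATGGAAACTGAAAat
Ifit3 (chr19:34583348-34583441, plus strand): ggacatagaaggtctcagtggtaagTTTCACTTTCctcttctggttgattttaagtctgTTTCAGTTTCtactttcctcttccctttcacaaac
Ifit3b (chr19:34607744-34607837, plus strand): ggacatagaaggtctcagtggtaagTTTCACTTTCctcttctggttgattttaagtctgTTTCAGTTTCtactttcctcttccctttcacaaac
In Bst2 and in both Oas1 genes, 2 matches overlap in a single run of 16 letters, and in Bst2 a gamma-activated site match shares bases with that run. Trim30a has 2 RefSeq starts, and the stretch shown belongs to the outer one. The stretch of Gbp5 lies before a RefSeq start that is inside the gene as annotated for the counts, which begins at chr3:142493978. The stretch of Oas1a matched that of Oas1g at 43 of 43 bases, and the stretch of Ifit3 matched that of Ifit3b at 94 of 94. A match is only a match of letters. The median log2 fold change (Ni against control) was -0.21 for the 21 genes with response element letters, of which 16 were negative, and -0.01 for the 12 genes without, of which 6 were negative; for the gamma-activated site letters it was -0.21 with and -0.12 without.

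**Figure D1:**
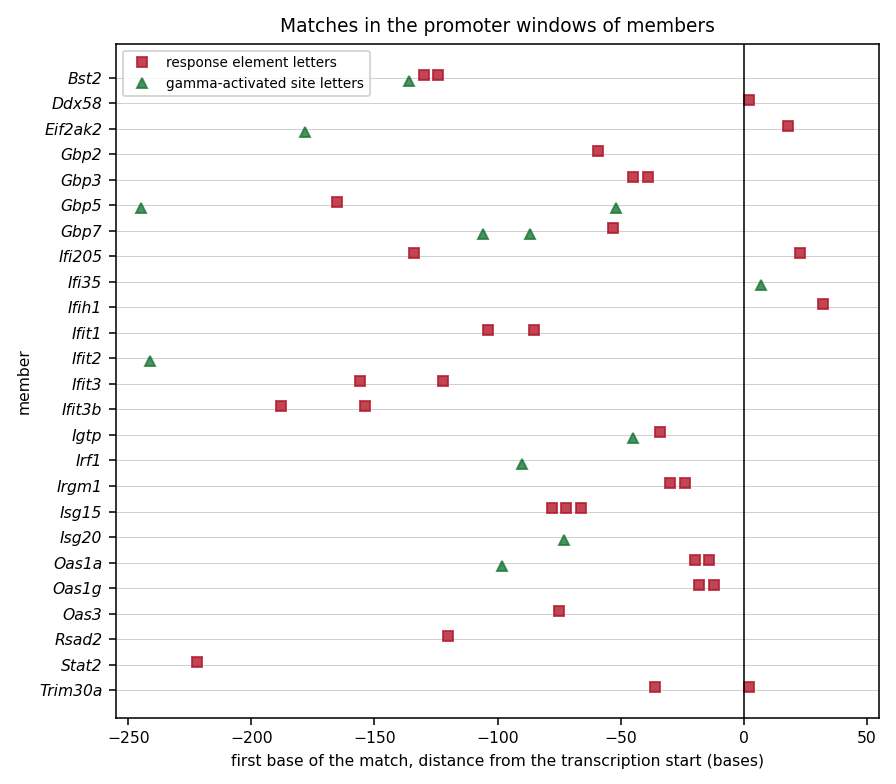
Matches to the response element letters (squares) and the gamma-activated site letters (triangles) in the RefSeq promoter windows of the genes that hold at least 1; the horizontal axis is the distance in bases of the first matching base from the transcription start (0), negative upstream. Most squares lie upstream of the start, and Isg15 holds 3 overlapping ones.

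All of the 45 genes were expressed, and their levels covered a wide range. Between 11 and 3099 reads were counted on a gene in a library. By FPKM, which divides by gene length and so allows levels of different genes to be compared, 7 genes had a mean over 10, 32 lay from 1 to 10 and 6 lay under 1, with a median of 4.04 over the 45. Bst2 led with a mean FPKM of 177, followed by Ifi27 with 52.8, Igtp with 43.5, Trim30a with 13.2, Ifi204 with 12.4, Oas1a with 11.8 and Isg15 with 10.9. Ifi205 was lowest at an FPKM of 0.241. Bst2 stood clear of Ifi27 in every library. Igtp overlapped Ifi27 (FPKM of 62.8 ± 33.2 against 55.5 ± 2.10 in controls, SD, n = 3), and Trim30a, Ifi204, Oas1a and Isg15 lay within 1 SD of a neighbour in controls, so the order among them is not resolved.

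With nickel, the 45 genes tended to lie slightly lower, without any of them passing the test after correction. The log2 fold change was negative for 32 and positive for 13 of them, and its median was -0.15. Over all 14624 genes the median was -0.01, and 48.1% were positive. Their summed level was 1285, 1301 and 1203 CPM in controls 1 to 3 and 1042, 1187 and 1037 CPM in Ni libraries 1 to 3. All 3 Ni sums lay below the 3 control sums, Ni 2 by the least. The 45 genes took from 0.103% to 0.129% of all reads counted.

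At an adjusted p of 0.05 edgeR called none of the 45 genes and 0% of all genes. DESeq2 called none of the 45 and 1.94% of the genes to which it gave an adjusted p. With limma, none of the 45 and 0% of all genes were called. The lowest adjusted p among the 45 genes was 0.323 and the highest 0.982. At an unadjusted p under 0.05, 2 of the 45 genes (4.44%) were higher in Ni, against 7.59% of all genes, and 5 (11.1%) were lower, against 5.83% of all genes. The 2 higher were Cmpk2 and Mx2, and the 5 lower were Iigp1, Trim30a, Gbp2, Gbp7 and Igtp. Differences were small: 34 of the 45 genes had an absolute log2 fold change under 0.3, and 7 had one over 0.5.

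The order of the libraries was compared gene by gene. For 14 of the 45 genes (31.1%) all 3 Ni libraries lay below all 3 controls, against 6.71% of all genes. These were Trim30a, Gbp2, Gbp7, Gbp3, Parp14, Parp9, Dtx3l, Zbp1, Ddx58, Ifi205, Ifi27, Oas2, Xaf1 and Irf1, with log2 fold changes from -0.78 to -0.12. For 2 genes (4.44%), Cmpk2 and Mx2, all 3 Ni libraries lay above, against 7.97% of all genes. The other 29 overlapped. For a single gene such a separation gives p = 0.1 in an exact two-sided permutation test, the smallest that 3 libraries against 3 allow. Without control 3, 19 genes lay wholly below (21% of all genes) and 7 wholly above (22.5%), and 6 of the 45 passed an adjusted p of 0.05 in edgeR (Cmpk2, Isg20, Gbp5, Iigp1, Igtp and Irgm1), as did 15.2% of all genes. Without Ni 2, 23 genes lay wholly below (17.7% of all genes) and 2 wholly above (17.6%), and none passed. With every library kept, 5 of the 20 macrophage markers lay wholly below (6.71% of all genes) and 0 wholly above (7.97%). At an unadjusted p under 0.05 in edgeR, 6 of these 20 were lower (5.83% of all genes) and 0 higher (7.59%). Such shares were thus not particular to the 45 genes.

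**Figure D2:**
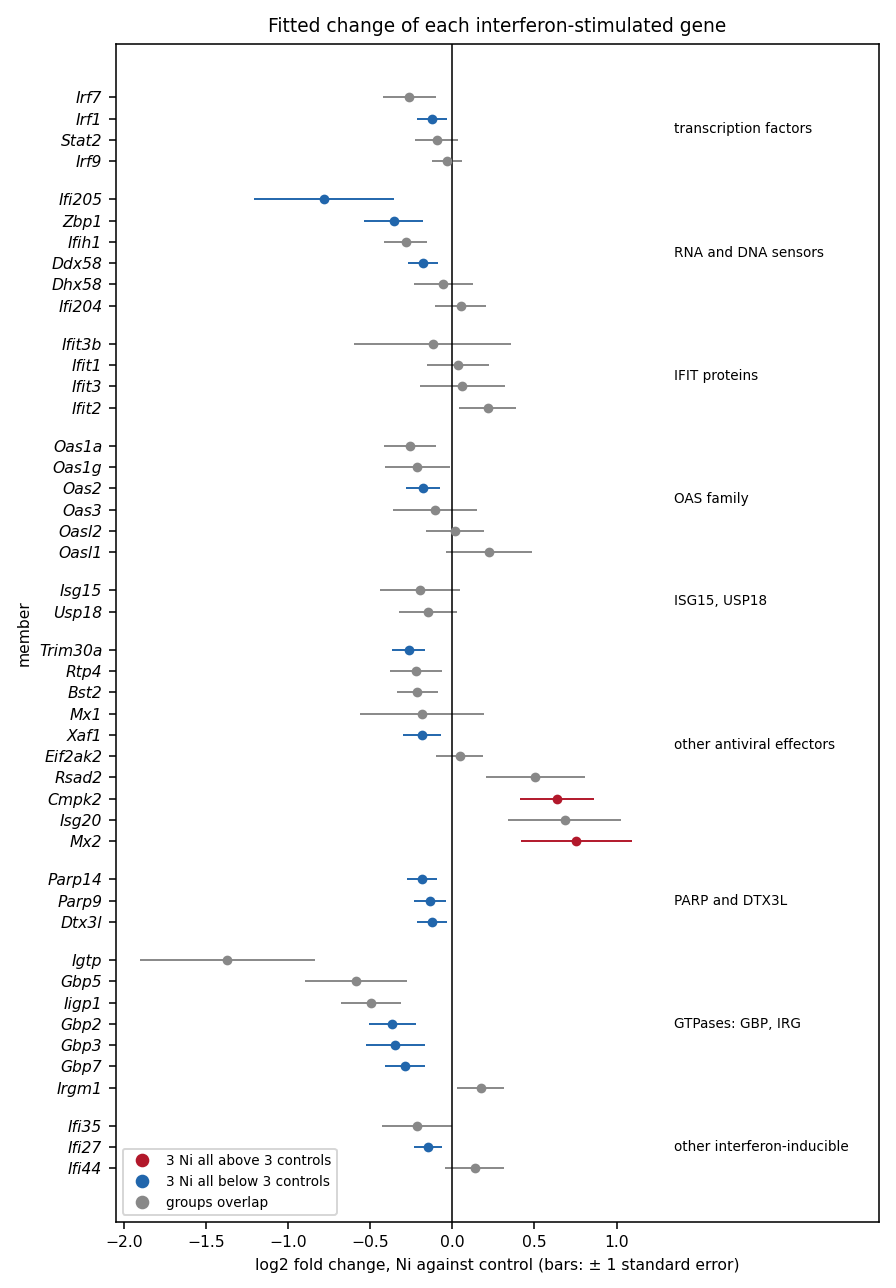
Fitted log2 fold change of each of the 45 genes, Ni against control, on the horizontal axis, with bars of ± 1 standard error, grouped by role; colour marks whether the 3 Ni libraries lie all above, all below or overlap the 3 controls. The 14 blue genes lie from -0.78 to -0.12, the 2 red ones are Cmpk2 and Mx2, and Igtp has the widest departure at -1.37.

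Not every Ni library contributed alike. Ni 1 held the lowest of the 6 values for 19 of the 45 genes (42.2%, against 14.6% of all genes) and Ni 3 for 11 (24.4%, against 18.6%). Ni 2 held it for 1 gene (2.22%, against 17% of all genes) and control 3 for 1 gene (2.22%, against 10.8%). The median of the 45 genes, as the log2 difference from the mean of the controls, was -0.21 in Ni 1, -0.01 in Ni 2 and -0.21 in Ni 3. Ni 2 thus lay at the level of the controls for the middle gene, while Ni 1 and Ni 3 lay below it.

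**Figure D3:**
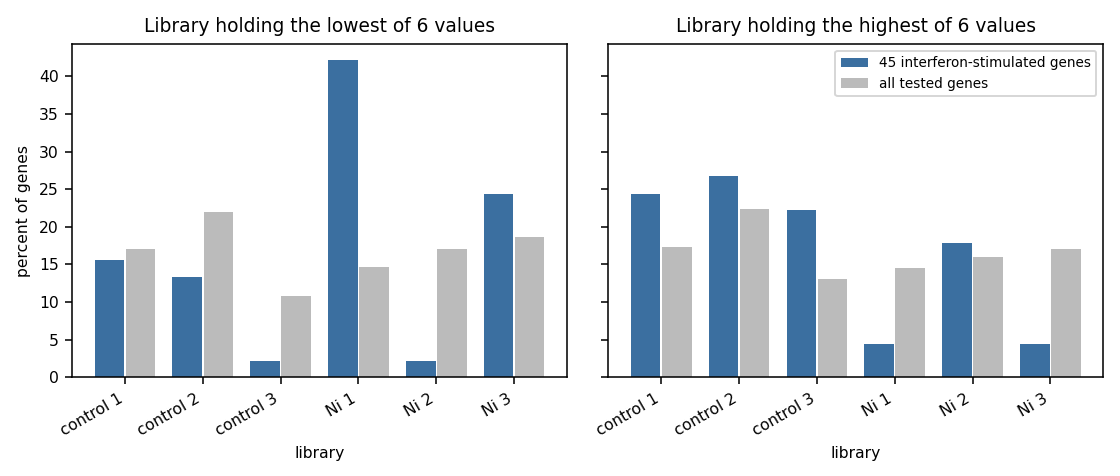
Percent of genes for which each library held the lowest (left) or the highest (right) of the 6 values, for the 45 interferon-stimulated genes (blue) and all 14624 tested genes (grey). Ni 1 held the lowest value for 42.2% of the 45 genes and the highest for 4.44%.

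**Figure D4:**
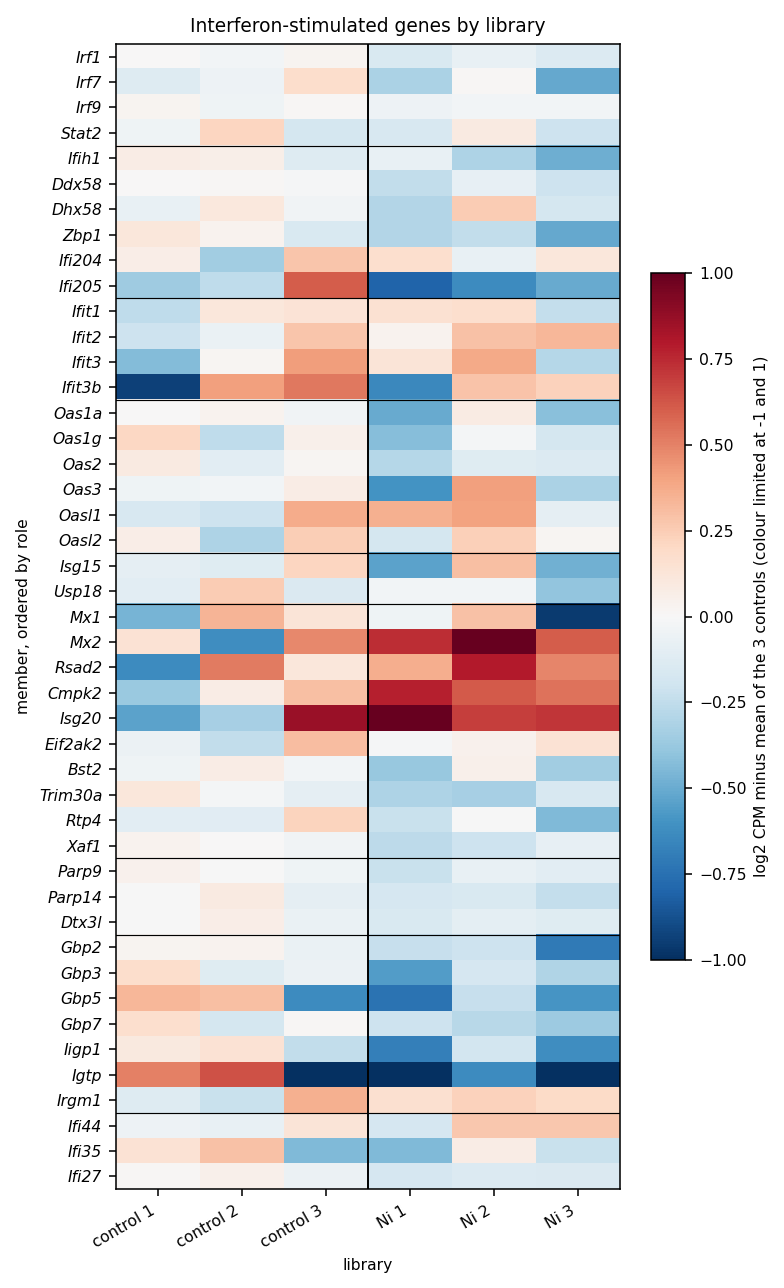
Level of each of the 45 genes in each library as log2 CPM minus the mean of the 3 controls (red above, blue below; colours stop at -1 and 1), ordered by role, with a vertical line between controls and Ni libraries. Pale blue prevails in Ni 1 and Ni 3, and red rows mark Mx2, Rsad2, Cmpk2 and Isg20.

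The 4 transcription factors, which carry the interferon signal to DNA, had log2 fold changes from -0.26 to -0.03, all negative. Irf1, induced above all by type II interferon, was at 41.7, 40.7 and 42.2 CPM in controls 1 to 3 and 37.3, 39.4 and 37.7 CPM in Ni 1 to 3. The groups did not overlap, yet the log2 fold change was only -0.12 (SE 0.09, adjusted p = 0.591, edgeR). Irf9, the DNA-binding partner of STAT2, was the most even, from 38.8 to 41 CPM over all 6 libraries. Irf7, which amplifies type I interferon production, had a log2 fold change of -0.26 with overlapping groups, which was -0.16 without control 3, -0.41 without Ni 2 and -0.15 without Ni 3. Stat2 showed -0.10, and -0.18 without control 3, and Irf9 -0.03, and -0.02 without it.

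Among the 6 sensors of foreign nucleic acid, 5 had a negative log2 fold change, with a median of -0.23. Ddx58, which encodes the RNA sensor RIG-I, was at 51.4, 51.8 and 50.9 CPM in controls and 43.3, 48.4 and 44.4 CPM in Ni. The 3 controls lay within 1 CPM of each other and every Ni library lay below them; the log2 fold change was -0.18 (SE 0.09, adjusted p = 0.421, edgeR). Ifih1, which encodes the RNA sensor MDA5, had a log2 fold change of -0.29 with overlapping groups. Dhx58, whose product LGP2 modulates the other pair, showed -0.05. Zbp1, the sensor of Z-form nucleic acid that can trigger necroptosis, was at 8.25, 7.81 and 6.84 CPM in controls and 6.19, 6.39 and 5.30 CPM in Ni, a log2 fold change of -0.36 without overlap.

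Ifi204 and Ifi205 belong to the same family of DNA-binding HIN-200 proteins and differed in level. Ifi204 was at 44.9, 33.8 and 52.1 CPM in controls and 48.3, 40.6 and 46.4 CPM in Ni, with a log2 fold change of 0.05 (SE 0.15, adjusted p = 0.919, edgeR) and all Ni values inside the control range; without control 3 it was 0.20. Ifi205, the least abundant of the 45, was at 0.929, 1.01 and 1.92 CPM in controls and 0.651, 0.748 and 0.829 CPM in Ni. Its log2 fold change of -0.78 (SE 0.43, adjusted p = 0.437, edgeR) was -0.37 without control 3, its highest library. Of the stretches of 50 transcript bases, 20% in Ifi204 and 18.6% in Ifi205 also occur in other genes, mostly of their own family, so reads may have been assigned among them.

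The IFIT genes, of which Ifit1 encodes a protein that binds viral RNA lacking the host's cap methylation, showed no common direction. Their log2 fold changes were 0.21 for Ifit2, 0.06 for Ifit3, 0.03 for Ifit1 and -0.12 for Ifit3b, and the groups overlapped for all 4. Without control 3 they were 0.37, 0.30, 0.11 and 0.16 in the same order. Ifit3b was at 0.601, 1.70 and 1.86 CPM in controls and 0.760, 1.55 and 1.49 CPM in Ni, so that its libraries differed within each group more than between them. Of the 50-base stretches of Ifit3, 51.2% occur in Ifit3b too, and 45% of those of Ifit3b occur elsewhere, chiefly in Ifit3, so their separate values are uncertain.

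The OAS family is named for enzymes that make the 2-5A signal, which activates RNase L. Of its 6 genes here, 4 had a negative and 2 a positive value, and the median log2 fold change was -0.14. Oas1a was at 24.4, 24.9 and 23.8 CPM in controls and 17.1, 25.7 and 18.2 CPM in Ni. Ni 2 had the highest value of all and the other Ni libraries the lowest; the log2 fold change was -0.26 (SE 0.16, adjusted p = 0.485, edgeR) and -0.46 without Ni 2. Oas1g, the near-identical copy that shares most of the 57.6% of Oas1a stretches found elsewhere, had -0.21. Oas3 repeated the split, with 4.94, 10.1 and 6.02 CPM in Ni 1 to 3 around controls of 7.32, 7.37 and 7.92 CPM; its log2 fold change of -0.11 was -0.46 without Ni 2. Oas2 was the family member without overlap, at 36.7, 32.1 and 34.9 CPM against 28.4, 31.8 and 31.4 CPM. The OAS-like genes Oasl1 and Oasl2 had log2 fold changes of 0.22 and 0.02 with overlapping groups, and of 0.44 and 0.15 without control 3.

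Isg15, a ubiquitin-like protein that is joined to other proteins, and Usp18, the protease that removes it and also dampens the type I receptor, had log2 fold changes of -0.20 and -0.15. Isg15 was at 8.31, 8.12 and 10.3 CPM in controls and 6.08, 10.9 and 6.30 CPM in Ni. Again Ni 2 lay above every control and Ni 1 and Ni 3 below. The value of -0.20 for Isg15 was -0.52 without Ni 2, -0.08 without control 3, -0.05 without Ni 1 and -0.07 without Ni 3.

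Both genes that lay wholly above the controls were among the other antiviral effectors, of which 5 had a positive and 5 a negative value. Cmpk2, a mitochondrial nucleotide kinase, was at 3.11, 4.28 and 5.04 CPM in controls and 7.06, 6.27 and 5.97 CPM in Ni. No value overlapped; the log2 fold change was 0.64 (SE 0.22, unadjusted p = 0.0177, adjusted p = 0.323, edgeR), and 0.81 without control 3 (adjusted p = 0.0381). Rsad2 encodes viperin, which makes a chain-terminating nucleotide from CTP, and is the neighbour of Cmpk2, 12751 bases away on the opposite strand. It was at 2.08, 4.72 and 3.54 CPM in controls and 4.23, 5.76 and 4.64 CPM in Ni, with a log2 fold change of 0.51 (SE 0.30, adjusted p = 0.479, edgeR). The highest control lay within the Ni range.

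Mx2, a dynamin-like GTPase that blocks viruses, was at 1.69, 0.945 and 2.16 CPM in controls and 2.61, 3.17 and 2.38 CPM in Ni. Its log2 fold change of 0.76 (SE 0.34, unadjusted p = 0.0499, adjusted p = 0.372, edgeR) went with no overlap, but its neighbour Mx1 had -0.19 and overlapping groups. Isg20, an exonuclease of RNA, was at 4.43, 5.10 and 11.8 CPM in controls and 13.1, 10.5 and 10.7 CPM in Ni. Control 3 lay among the Ni libraries and the other controls far below. Its log2 fold change of 0.69 (SE 0.34, adjusted p = 0.416, edgeR) became 1.27 without control 3 (adjusted p = 0.00106).

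Bst2, or tetherin, which holds budding virus at the cell surface, carried 13.7% of the summed CPM of the 45 genes in controls. It was at 168, 181 and 169 CPM in controls and 132, 178 and 135 CPM in Ni, with Ni 2 inside the control range and Ni 1 and Ni 3 below it. The log2 fold change was -0.21 (SE 0.12, adjusted p = 0.473, edgeR) and -0.36 without Ni 2. Trim30a, a TRIM protein that restrains Toll-like receptor signalling, was at 64.4, 58.6 and 55.9 CPM in controls and 48.1, 47.3 and 53.3 CPM in Ni. Here all 3 Ni libraries lay below, Ni 2 lowest, with a log2 fold change of -0.27 (SE 0.10, unadjusted p = 0.0235, adjusted p = 0.334, edgeR). Eif2ak2, which encodes the RNA-activated kinase PKR, showed 0.04, and 0.22 without control 3. Xaf1, a partner of the apoptosis inhibitor XIAP, showed -0.18 without overlap, and Rtp4 -0.22 with overlapping groups, which was -0.10 without control 3 and -0.34 without Ni 2.

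Parp9, Dtx3l and Parp14 encode enzymes of ADP-ribose and ubiquitin transfer, of which PARP9 and DTX3L act as a complex. All 3 lay wholly below the controls, against 6.71% of all genes. Parp14 was at 73, 78.2 and 69 CPM in controls and 65.4, 65.8 and 62.1 CPM in Ni, a log2 fold change of -0.19 (SE 0.09, adjusted p = 0.400, edgeR). Parp9 showed -0.14 and Dtx3l -0.12. The 3 genes lie together on chr16, and the exons of Parp9 and Dtx3l overlap on opposite strands over 9.4% and 8% of their bases, where reads counted without strand cannot be told apart.

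The group with the lowest median was the GTPases that interferon induces against intracellular microbes, with 6 of 7 negative and a median log2 fold change of -0.37. In the guanylate-binding protein (GBP) family, Gbp2 was at 25.1, 25.3 and 23.6 CPM in controls and 21, 21.3 and 15.1 CPM in Ni. No value overlapped and the log2 fold change was -0.37 (SE 0.14, unadjusted p = 0.0295, adjusted p = 0.344, edgeR). Gbp7 was at 28.1, 22 and 25.1 CPM in controls and 21.6, 20.6 and 19.4 CPM in Ni, again without overlap, with -0.29 (SE 0.12, unadjusted p = 0.0396, adjusted p = 0.358, edgeR). Gbp3 lay wholly below as well, with -0.35. Gbp5, known for its part in inflammasome activation, was at 4.92, 4.79 and 2.46 CPM in controls and 2.28, 3.28 and 2.54 CPM in Ni. Control 3 lay among the Ni libraries, so that the log2 fold change of -0.59 (SE 0.31, adjusted p = 0.430, edgeR) became -0.84 without it (adjusted p = 0.0484).

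The immunity-related GTPases (IRG) gave the greatest difference and the greatest spread. Igtp, also named Irgm3, was at 159, 174 and 50.5 CPM in controls and 41.9, 72.2 and 34.2 CPM in Ni. Controls 1 and 2 stood far above all other libraries, while control 3 lay between Ni 1 and Ni 2. The log2 fold change was -1.37 (SE 0.53, unadjusted p = 0.0443, adjusted p = 0.367, edgeR) and -1.75 without control 3 (adjusted p = 0.0457). Irgm2 (chr11:58199618-58222782) overlaps Igtp on the same strand. It shares 8.01% of the exon bases of Igtp, and 11.8% of the 50-base stretches of Igtp occur in it. Irgm2 was at 57.5, 57.4 and 26.2 CPM in controls and 26.3, 27.4 and 24.8 CPM in Ni. The controls split in the same way, but reads may have been assigned between both genes, so their values are not fully separate. Iigp1, an effector GTPase of the family also named Irga6, was at 14.6, 15.1 and 11.5 CPM in controls and 8.47, 12 and 8.84 CPM in Ni, with a log2 fold change of -0.49 (SE 0.18, unadjusted p = 0.0223, adjusted p = 0.334, edgeR). Only the control 3 and Ni 2 values crossed, and without control 3 the log2 fold change was -0.60 (adjusted p = 0.0418, edgeR). Irgm1, a regulatory member of the same family, was the exception, at 47.5, 44.5 and 66.8 CPM in controls and 58.3, 61.2 and 59.5 CPM in Ni. Its log2 fold change of 0.17 (SE 0.15, adjusted p = 0.641, edgeR) was 0.38 without control 3 (adjusted p = 0.0213).

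**Figure D5:**
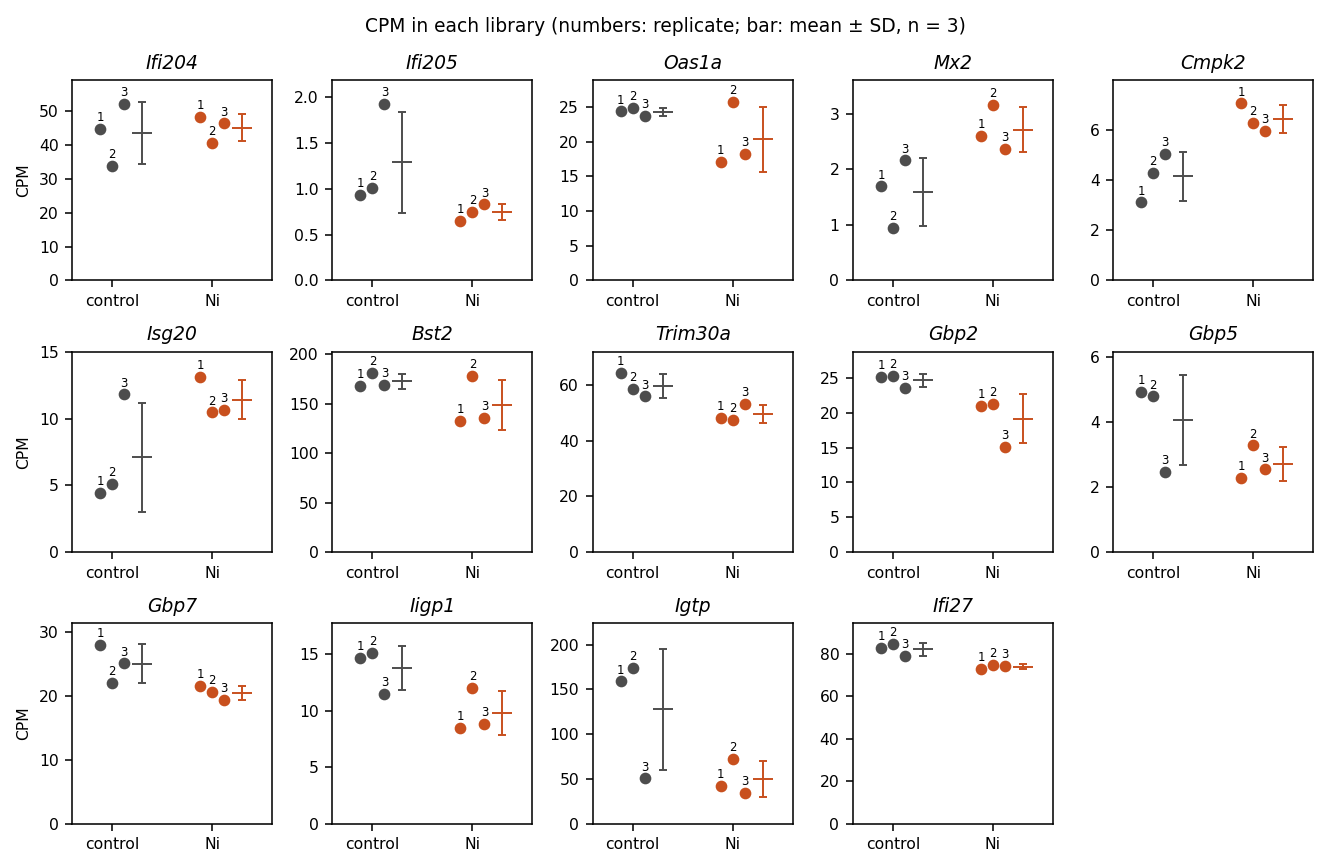
CPM in each library for the 14 genes given in full (vertical axes start at 0; numbers beside points are replicates; bars are the mean ± SD of 3 libraries; grey, control; orange, Ni). In Igtp, Gbp5 and Isg20, control 3 lies with the Ni libraries, and in Oas1a and Bst2, Ni 2 lies with or above the controls.

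Ifi27, a small membrane protein and the gene with the next highest FPKM after Bst2, was at 82.6, 84.7 and 78.8 CPM in controls and 72.8, 74.8 and 74.1 CPM in Ni. Its replicates were tight (82 ± 2.98 against 73.9 ± 1.00 CPM, SD, n = 3) and did not overlap. The log2 fold change was -0.15 (SE 0.09, adjusted p = 0.461, edgeR). Ifi35 and Ifi44 had log2 fold changes of -0.21 and 0.14 with overlapping groups, and of -0.40 and 0.21 without control 3. For Ifi35, 16.8% of exon bases overlap a gene on the opposite strand.

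Position grouped many of the genes: 21 of the 45 lay in 7 clusters whose neighbours were at most 100000 bases apart. The 4 GBP genes at chr3:142493978-142638008 (GRCm38) were all negative, with 3 wholly below the controls, against 6.71% of all genes. The 4 genes of the OAS cluster at chr5:120730333-120907521 were all negative with a median log2 fold change of -0.20. Over all genes 48.1% were positive. Rsad2 and Cmpk2 at chr12:26442746-26479837 were both positive. In contrast, the 4 IFIT genes at chr19:34550694-34650009 held 3 positive and 1 negative value, and Mx1 and Mx2 at chr16:97447035-97560900 went opposite ways. Igtp (chr11:58199556-58207591) and Irgm1 (chr11:48861968-48871683) are on the same chromosome but far apart. Outside the clusters stood Bst2 (chr8:71534255-71537456, minus strand), Trim30a (chr7:104409025-104465193, minus strand), Isg20 (chr7:78913424-78920396, plus strand), Ifi27 (chr12:103434211-103440239, plus strand), Ifi204 (chr1:173747293-173766943, minus strand) and Ifi205 (chr1:174011998-174031810, minus strand), with the whole gene given in each case.

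The genes upstream of the 45 were measured from a list of ligands, receptors and signalling proteins. Of 10 interferon genes, 9 (Ifnb1, Ifna1, Ifna2, Ifna4, Ifna5, Ifne, Ifng, Ifnl2 and Ifnl3) were at 0 in every library, and Ifnk had 1 count in control 1. A count of 0 allows from 0.161 to 0.186 CPM at these depths (3 counts of the total, counting error only). Transcripts of these 9 genes were therefore not detectable at this depth; other interferon genes were not analysed here. The receptor genes of the type I and type II interferons were present in both groups. Ifnar1 and Ifnar2 had log2 fold changes of -0.05 each and Ifngr1 of -0.01. Ifngr2 was at 171, 176 and 151 CPM in controls and 137, 142 and 134 CPM in Ni, wholly below, with -0.27 (unadjusted p = 0.0186, adjusted p = 0.323, edgeR). Of the receptor chains for type III interferon, Il10rb, which also serves other cytokines, had a log2 fold change of -0.12 with overlapping groups, and Ifnlr1 had at most 3 counts in a library and was not tested.

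The receptor kinases Jak1, Jak2 and Tyk2 had log2 fold changes of -0.06, 0.12 and -0.28 with overlapping groups. Stat3, a transcription factor shared with other cytokines, showed -0.10, and none of these had an unadjusted p under 0.05. Of 6 inhibitors, 3 were negative. Ptpn6, the phosphatase SHP-1, had an unadjusted p under 0.05 (log2 fold change -0.44, adjusted p = 0.350, edgeR), where 5.83% of all genes were lower. Of the 11 sensor adaptors and kinases, 9 were negative. Ikbke at -0.66, Myd88 at -0.33 and Tbk1 at -0.26 had an unadjusted p under 0.05, where 5.83% of all genes were lower. For Ikbke, a kinase of IRF3 and IRF7, controls 1 and 2 were at 325 and 350 CPM while control 3, at 182 CPM, lay among the Ni libraries (164, 211 and 168 CPM). For Ptpn6, Myd88 and Tbk1 too, control 3 (380, 62.5 and 89.9 CPM) lay within the Ni range and below the other controls. Of 5 tested further IRF genes, Irf4 alone had an unadjusted p under 0.05, with a log2 fold change of 0.86. At this p, 7.59% of all genes were higher. Its control 3 value of 5.70 CPM lay within the Ni range and above the other controls.

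A list of 61 further interferon-inducible genes, of which 60 were tested, had a median log2 fold change of -0.15, as the 45 had. Of the 60, 48 were negative and 12 positive. For 10 genes all Ni libraries lay below the controls (6.71% of all genes did) and for 1, Helz2, above (7.97%). At an unadjusted p under 0.05 edgeR had 9 lower (Psmb9, Ifi27l2a, Tnfsf10, Parp12, Ifi207, Irgm2, Uba7, Tor1aip1 and Samhd1), against 5.83% of all genes, and 1 higher (Helz2), against 7.59%; none passed an adjusted p of 0.05, the smallest being 0.224. Psmb9, an interferon-inducible subunit of the immunoproteasome, was at 22.4, 25.3 and 23.6 CPM in controls and 14.3, 18.5 and 15.3 CPM in Ni, a log2 fold change of -0.57 without overlap. Ifi27l2a, a paralog of Ifi27, was at 89.5, 93.7 and 93.5 CPM in controls and 72.7, 74.5 and 63.1 CPM in Ni, with -0.40. In both genes the control values were tight and control 3 lay with the other controls. This did not hold for Irgm2, given above, or Samhd1. Samhd1 was at 329, 336 and 208 CPM in controls and 226, 224 and 222 CPM in Ni. Tnfsf10 was at 4.54, 4.09 and 2.10 CPM in controls and 2.06, 1.78 and 1.33 CPM in Ni. For Parp12, Ifi207, Uba7 and Tor1aip1, control 3 was the lowest control and lay above every Ni library.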

How the data were processed

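RNA was sequenced from 3 control and 3 Ni cultures, which the series describes as independent biological replicates. Libraries were made from fragmented mRNA with random primers. The authors deposited raw counts of reads per gene, together with FPKM for each; the deposited FPKM equal the counts divided by gene length and by 1 factor per library. The submitters' processing notes name the build GRCm38; the aligner, the counting tool and the strand setting are not given in the sources used here. Columns were matched to samples by the labels.

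Counts were filtered by filterByExpr, normalized by TMM and tested across all 14624 genes in edgeR 4.0.16 (R 4.3.3) by its robust quasi-likelihood test, with a prior count of 0.125; p-values were adjusted by Benjamini-Hochberg. CPM and log2 CPM (prior count 2) used TMM-scaled totals. DESeq2 1.42.0 and limma 3.58.1, on log2(FPKM + 1) and log2(FPKM + 0.1), were alternatives, as were other normalizations and filters, a replicate block, removal of a gene-length trend and leaving out each library. The fit was tested on simulated data, in which 200 genes among 14624 were given a log2 change of 1.5. Of these 200, 196 were tested and 90.8% of those were recovered, and 3.78% of calls were false. The simulation used changes of that size only, whereas 34 of the 45 genes had an absolute log2 fold change under 0.3. It therefore does not show how often differences as small as theirs would be found. No library was a copy of another: within groups the chi-square of counts ranged from 4.37 to 43.6 per degree of freedom. Replicate numbers were not taken to pair the samples.

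Genes given in full were those with an unadjusted p under 0.05, the 6 with the highest FPKM and the 6 with the largest absolute log2 fold change. Other genes are described by role, and for other lists those with an unadjusted p under 0.05 and the receptors; some genes of these lists are not reported here. The values of Psmb9, Ifi27l2a and Irgm2 and of further genes shown by library were chosen after their values were seen. The 45 genes and all lists were chosen with earlier results of these data known. Exon overlap and shared 50-base stretches were computed on GENCODE M21, and promoter windows came from RefSeq. Promoters of Dhx58, Zbp1, Ifi204, Oas2, Usp18, Mx1, Mx2, Rtp4, Parp9, Parp14, Iigp1 and Ifi27 were not analysed here. Intervals for counts of 0 cover counting error only.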

Additional observations from a re-analysis of the deposited data

How the results depend on the processing

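The median log2 fold change of the 45 genes kept its sign under every alternative: it ranged from -0.16 to -0.12 over the other normalizations, filters, tests and scales, was -0.15 without Igtp (an alternative added after seeing the data), and ranged from -0.21 to -0.11 with 1 library left out. No gene of the 45 passed an adjusted p of 0.05 in these settings, save as follows. With no filter on low counts 1 did (Isg20), against 3.97% of all genes. With 1 library left out from 0 to 6 did, the 6 without control 3, where 15.2% of all genes did. With library totals only, 1 gene and not 2 was higher at an unadjusted p under 0.05 (7.3% of all genes were). At this p, leaving out 1 library gave from 0 to 4 genes higher, and from 0 to 9 lower; the 4 and the 9 came without control 3, where 15.2% of all genes were higher and 12.2% lower, and both counts were 0 without control 1 (4.07% and 2.2% of all genes). Fits without 1 library were also added, after seeing the data, for the count of genes whose groups did not overlap. In them, from 14 to 23 genes lay wholly below the controls, the 23 without Ni 2 (17.7% of all genes). From 2 to 7 lay wholly above, the 7 without control 3 (22.5% of all genes). With a replicate block, 2 genes were higher and 7 lower at this p (10.2% and 8.7% of all genes), 0 passed the adjusted threshold, and the median was -0.16; same-numbered libraries deviated together only weakly (correlations of 0.01, 0.26 and 0.14). Removing a gene-length trend in the blocked fit also gave 2 and 7 (10.2% and 8.83% of all genes). Over all genes, 315 passed in the blocked fit and 264 in DESeq2.

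Under every alternative 35 of the 45 genes kept their sign. The other 10 crossed 0 with some library left out, over ranges from -0.19 to 0.020 for Stat2, -0.23 to 0.053 for Dhx58, -0.10 to 0.20 for Ifi204, -0.083 to 0.16 for Ifit1, -0.13 to 0.30 for Ifit3, -0.49 to 0.16 for Ifit3b, -0.46 to 0.094 for Oas3, -0.12 to 0.15 for Oasl2, -0.48 to 0.11 for Mx1 and -0.073 to 0.22 for Eif2ak2. The causes of these shifts were not tested. With 3 libraries a group and counts as low as 11 in a library, small differences in the least abundant genes, such as Ifi205 and Ifit3b, cannot be resolved.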
